A study of Saccharomyces cerevisiae with 12 samples.

Results

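Transcript levels of a budding yeast strain labelled nup84 null were compared with those of wild type across 5636 named genes. The comparison rests on 4 of the 12 arrays of the series, those titled as nup84 null against wild type, and no array was chosen by its values. Both strains were grown with 2% glucose, and neither the strain background, nor the allele, nor whether the null is 1 clone is given in the sources used here. The same series holds 4 arrays of a strain labelled gcr1 null and 4 of a strain labelled nup84gcr1 null, each also against wild type with 2% glucose. The nup84 null was labelled with Cy5 on arrays 1 and 2 and with Cy3 on arrays 3 and 4. Arrays 1 and 3 were taken as the dye-swapped measurements of biological sample 1, and arrays 2 and 4 as those of sample 2. Every value below is a log2 ratio of nup84 null over wild type with the array's median set to 0, so that a value of 1 is 2-fold higher and -1 is 2-fold lower in the null.

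Nup84 is a structural protein of the nuclear pore, the channel through which messenger RNA, ribosomal subunits and proteins cross the nuclear envelope. It is the namesake of the Y-shaped Nup84 complex, which also holds Nup85, Nup120, Nup133, Nup145C, Seh1 and Sec13. Mutants of this complex are known for clustered pores and for retention of messenger RNA in the nucleus, and the complex is also known in yeast for contacts with subtelomeric chromatin and for a role in tolerance of DNA damage. Yeast growing on glucose keeps genes for respiration, gluconeogenesis and storage sugars low, keeps ribosomal protein genes high, and reverses both when glucose runs out or growth slows. The environmental stress response changes many of the same genes.

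NUP84 (YDL116W) was read first as a check of the label. Its log2 ratio was -4.27 on array 1, -3.26 on array 2, -2.75 on array 3 and -2.50 on array 4. NUP84 was low on all 4 arrays, and was the lowest of the 5636 genes in the mean. The mean was -3.19 ± 0.24 (standard error, SE, n = 2 biological samples; limma, Benjamini-Hochberg adjusted p = 0.000549). Each SE given here is limma's moderated SE, which pools the spread between samples over the 3 strains of the series. The p-values rest only on this pooled and moderated spread between samples, not on that of the nup84 null alone. The labels do not say that the 2 samples came from separate cultures. Of the 5 nearest measured genes on each side of NUP84, limma called none of the 10, where it called 16.7% of all genes, and 2 of the 10 had an unadjusted p under 0.05. The largest value among them was that of ATG20, a sorting nexin of selective autophagy, at 1.07 ± 0.32 (adjusted p = 0.0543). ATG20 was called with a replicate block (adjusted p = 0.0276) and without array 1 (0.0444) or array 2 (0.0329). GCR1 itself, a transcriptional activator of glycolytic genes, read 0.45, 0.47, 0.34 and 0.60 on arrays 1 to 4 of the nup84 null (mean 0.47 ± 0.21, adjusted p = 0.158).

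In the nup84 null, genes of general stress, storage sugars and gluconeogenesis rose, and ribosomal protein and histone genes fell. A small heat shock gene, HSP12, led the rise at 52.1-fold. Of 5636 genes, limma called 941 at an adjusted p under 0.05, which is 16.7%. Of these 941, 485 were higher (8.61%) and 456 lower (8.09%), and the median over all genes was -0.01. The sign was the same on all 4 arrays for 939 of the calls, against 59% of all genes. Arrays 1 and 3 correlated across genes at 0.741 and arrays 2 and 4 at 0.735, and the 2 samples at 0.829, where genes are not independent replicates. Arrays with the null in the same dye but from different samples correlated more, at 0.794 (arrays 1 and 2) and 0.852 (arrays 3 and 4). The difference between dye orientations had a standard deviation of 0.521 over genes, and that between samples 0.421. Averaging each swap pair leaves the dye difference out of the SE. The calls need both biological samples: limma called 33 genes when sample 1 was left out and 5 when sample 2 was left out, with a lone sample assumed to vary like the other strains. Genes of chromosome I stood higher in sample 2 than in sample 1, and with these genes left out, an alternative chosen after seeing the data, 934 genes were called. Gene lists for 50 functions held 1272 measured genes and 429 of the calls. The shares over all genes, 8.61% higher and 8.09% lower, are the background for each list count below.

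The stress genes of stationary phase stood at the top of the comparison. HSP12, a small membrane-binding heat shock protein, read 5.50 and 5.74 on the arrays of sample 1 and 5.60 and 5.96 on those of sample 2 (mean 5.70 ± 0.31, adjusted p = 0.000118). Its 4 arrays gave nearly the same value. HSP26, a small heat shock chaperone that holds unfolded proteins, lay between 3.73 and 4.01 on the 4 arrays (mean 3.93 ± 0.32, adjusted p = 0.000549). RTN2, a reticulon of the endoplasmic reticulum, rose by 3.76 ± 0.30, and MSC1, a gene without a settled role, by 3.48 ± 0.28. TMA10, a ribosome-associated protein, was higher in sample 1 (3.71 and 3.62) than in sample 2 (2.28 and 2.30), with a mean of 2.98 ± 0.47 (adjusted p = 0.00693). Of 28 measured small heat shock, hydrophilin and stationary phase genes, 19 rose and none fell, with a median of 1.49. CTT1, cytosolic catalase, rose by 2.54 ± 0.25, and PRX1, a mitochondrial peroxiredoxin, by 2.04 ± 0.30. Among all 28 oxidative defence enzymes, however, 6 rose (21.4%, against 8.61% of all genes) and 1 fell (3.57%, against 8.09%). Their median was 0.14. MSN4, a transcription factor of the general stress response, read 1.70, 1.79, 1.48 and 2.22 on arrays 1 to 4 (mean 1.80 ± 0.21, adjusted p = 0.00222).

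Chaperones of the Hsp70 and Hsp90 families were called in both directions. SSA4, the stress-induced cytosolic Hsp70, read 2.48 and 2.26 in sample 1 and 1.38 and 0.97 in sample 2 (mean 1.78 ± 0.31, adjusted p = 0.00901). SSE2, a nucleotide exchange factor of Hsp70, rose by 1.53 ± 0.32, and HSP78, a mitochondrial disaggregase, by 1.37 ± 0.30. SSB1, an Hsp70 that sits on translating ribosomes, fell by 1.44 on the log2 scale (SE 0.27, adjusted p = 0.0119). In the whole list of 25 genes, 4 rose, 3 fell and the median was -0.17. The sample medians of this list were 0.15 and -0.44. RPN4, the transcription factor of proteasome genes, rose by 1.28 ± 0.25 (adjusted p = 0.0132). Of the 33 genes of the proteasome list, 2 rose, RPN4 included (6.06%, against 8.61% of all genes), and the list median was 0.19. Leaving out array 1 of the null raised the number of Hsp70 and Hsp90 genes called lower from 3 to 5.

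Both storage sugars were covered by the rise. GPH1, glycogen phosphorylase, read 3.94, 4.27, 3.83 and 3.89 on arrays 1 to 4 (mean 3.98 ± 0.22, adjusted p = 0.000118). SGA1, a glucoamylase otherwise known from sporulation, rose by 2.69 ± 0.20, PGM2, phosphoglucomutase, by 2.64 ± 0.33, and GLC3, the glycogen branching enzyme, by 2.55 ± 0.40. Of 16 glycogen genes, 10 rose, none fell and the median was 1.65. The called members hold enzymes of synthesis and of breakdown alike. Of 7 trehalose genes, 5 rose, with a median of 1.10. TSL1, a subunit of trehalose synthase, read 2.23, 2.26, 2.19 and 2.07 on arrays 1 to 4 (mean 2.19 ± 0.30, adjusted p = 0.00438). NTH1, neutral trehalase, rose by 1.92 ± 0.21, TPS2, trehalose-phosphate phosphatase, by 1.42 ± 0.27, and ATH1, acid trehalase, by 1.10 ± 0.21. All 7 trehalose genes lay above 0 on all 4 arrays.

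**Figure D1:**
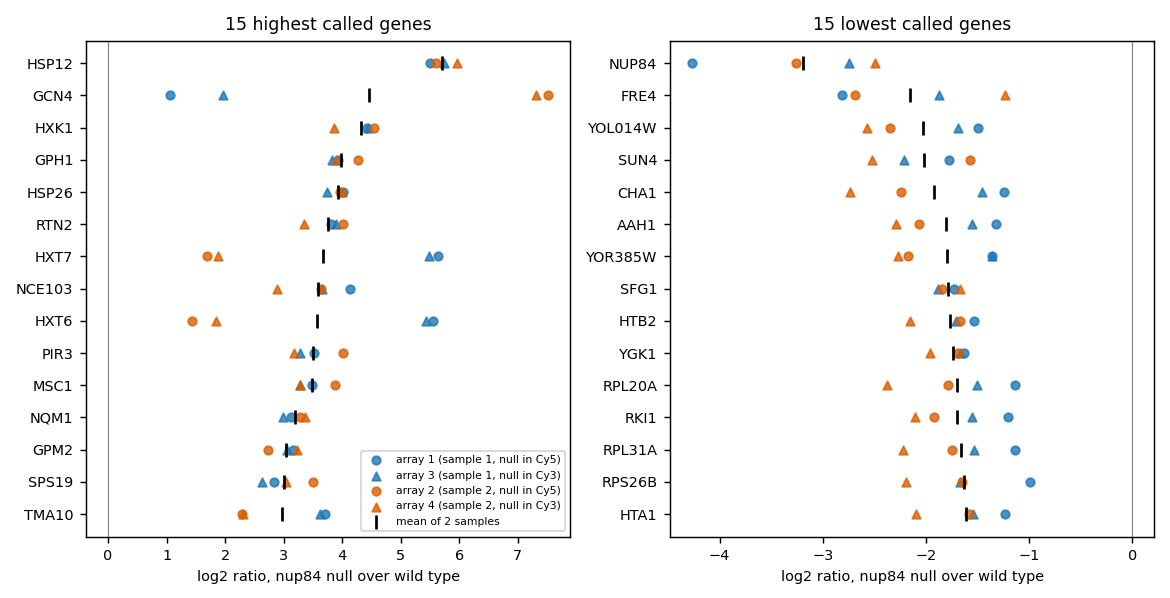
Log2 ratio of nup84 null over wild type (x axes) on each of the 4 arrays for the 15 highest (left) and 15 lowest (right) called genes. Colour gives the biological sample, shape the dye of the null, and the bar the mean of the 2 samples; HSP12 lies near 5.70 on every array, while GCN4, HXT6 and HXT7 separate by sample.

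Genes of hexose uptake and phosphorylation that are known from low glucose were among those that rose. HXK1, the hexokinase known to be repressed by glucose, read 4.43, 4.54, 4.44 and 3.86 on arrays 1 to 4 (mean 4.32 ± 0.37, adjusted p = 0.000668). GLK1, glucokinase, rose by 1.78 ± 0.38 (adjusted p = 0.0172). HXK2, the main hexokinase of glucose-grown cells, was below 0 on all 4 arrays but was not called (-1.17 ± 0.41, adjusted p = 0.0829, and 0.0348 with a replicate block), and EMI2, a glucokinase paralog, read 1.31 ± 0.55 (adjusted p = 0.135). Of 20 hexose transporters and sensors, 4 rose and 1 fell, with a median of 0.11. HXT5, a transporter of slow growth, rose by 2.04 ± 0.28, and HXT4, a high-affinity transporter, by 1.88 ± 0.41. HXT1, the low-affinity transporter of high glucose, was the 1 that fell (-1.05, adjusted p = 0.0288), named here after its value was seen. HXT7, a high-affinity transporter, read 5.64 and 5.49 in sample 1 against 1.70 and 1.88 in sample 2 (mean 3.68 ± 0.74, adjusted p = 0.0143). HXT6 gave 5.55 and 5.43 against 1.43 and 1.85. HXT6 and HXT7 are near-identical, and whether the probes tell them apart was not checked, so they may be a single signal.

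Regulators of glucose repression moved in part. ADR1, an activator of genes for growth on ethanol and other carbon sources, read 1.95, 2.20, 2.17 and 2.65 on arrays 1 to 4 (mean 2.24 ± 0.22, adjusted p = 0.000953). USV1, a zinc finger regulator, rose by 2.13 ± 0.23, MTH1, a co-repressor of hexose transporter genes, by 1.92 ± 0.23, and CAT8, an activator of gluconeogenesis genes, by 1.35 ± 0.21. Of 25 such regulators, 6 rose and 1 fell, and the median was 0.28. Of 19 genes of gluconeogenesis, the glyoxylate cycle and C2 use, 14 rose and none fell, with a median of 1.10. ALD3, a cytosolic aldehyde dehydrogenase, rose by 2.86 ± 0.31, IDP2, cytosolic isocitrate dehydrogenase, by 2.37 ± 0.22, and ALD4, the mitochondrial aldehyde dehydrogenase, by 2.00 ± 0.24. PCK1, phosphoenolpyruvate carboxykinase, read 1.15 and 1.71 in sample 1 and 2.12 and 2.50 in sample 2 (mean 1.87 ± 0.24, adjusted p = 0.0038). Of 18 genes of peroxisomal fatty acid oxidation, 2 rose (11.1%, against 8.61% of all genes), and the median was 0.34. The 2 were SPS19, a dienoyl-CoA reductase (8.01-fold, SE 0.23 on the log2 scale), and POT1, the thiolase (2.38 ± 0.21). Without array 1 or array 2, 6 and 5 genes of fatty acid oxidation were called higher.

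Respiratory genes had medians above 0. All 17 TCA cycle genes had a mean above 0, with a median of 0.70, and 4 rose. LSC2, a subunit of succinyl-CoA ligase, rose by 1.66 ± 0.23, CIT1, mitochondrial citrate synthase, by 1.49 ± 0.29, and MDH1, mitochondrial malate dehydrogenase, by 1.27 ± 0.21. Of 40 respiratory chain and ATP synthase genes, 8 rose and none fell, and the median was 0.42. CYC7, the cytochrome c isoform of low oxygen, rose by 1.99 ± 0.38, CYB2, lactate dehydrogenase, by 1.81 ± 0.27, INH1, the inhibitor of ATP synthase, by 1.47 ± 0.28, and COX5B, the low-oxygen form of a cytochrome oxidase subunit, by 1.43 ± 0.21. Mitochondrial ribosomal proteins gave 1 call lower among 66 genes (1.52%, against 8.09% of all genes) and a median of -0.14.

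Glycolytic genes were mostly below 0, and their calls were few. Of 24 genes from PGI1 to fermentation, 17 had a mean below 0, 5 fell, 3 rose and the median was -0.72. ENO2, enolase, read -0.88 and -0.98 on arrays 1 and 2, where the null was in Cy5, and -2.05 and -2.47 on arrays 3 and 4 (mean -1.59 ± 0.23, adjusted p = 0.00481). The values of ENO2 were thus lower on the arrays with the null in Cy3, in both samples. GPM2, a phosphoglycerate mutase homologue without known activity in the pathway, rose by 3.04 ± 0.27 (adjusted p = 0.000757). GPM1, the phosphoglycerate mutase itself, was below 0 on all 4 arrays but was not called (-0.80 ± 0.27, adjusted p = 0.078). GPM1 was called with a replicate block (adjusted p = 0.0405) and, at -1.11 each, without array 1 (0.0249) or array 2 (0.0388). The glycolytic genes called lower numbered 8 without array 1 of the null and 9 without array 2, and 3 without array 3 or without array 4. In the pentose phosphate pathway, 4 of 13 genes rose and 1 fell, and the median was -0.02. The 4 that rose are second copies of enzymes of the pathway: NQM1, a transaldolase paralog (3.19 ± 0.29), SOL4, a lactonase paralog (2.69 ± 0.40), TKL2, transketolase 2 (2.48 ± 0.38), and GND2, a phosphogluconate dehydrogenase (2.22 ± 0.23). The 1 that fell was RKI1, ribose-5-phosphate isomerase (-1.70 ± 0.27, adjusted p = 0.00676).

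**Figure D2:**
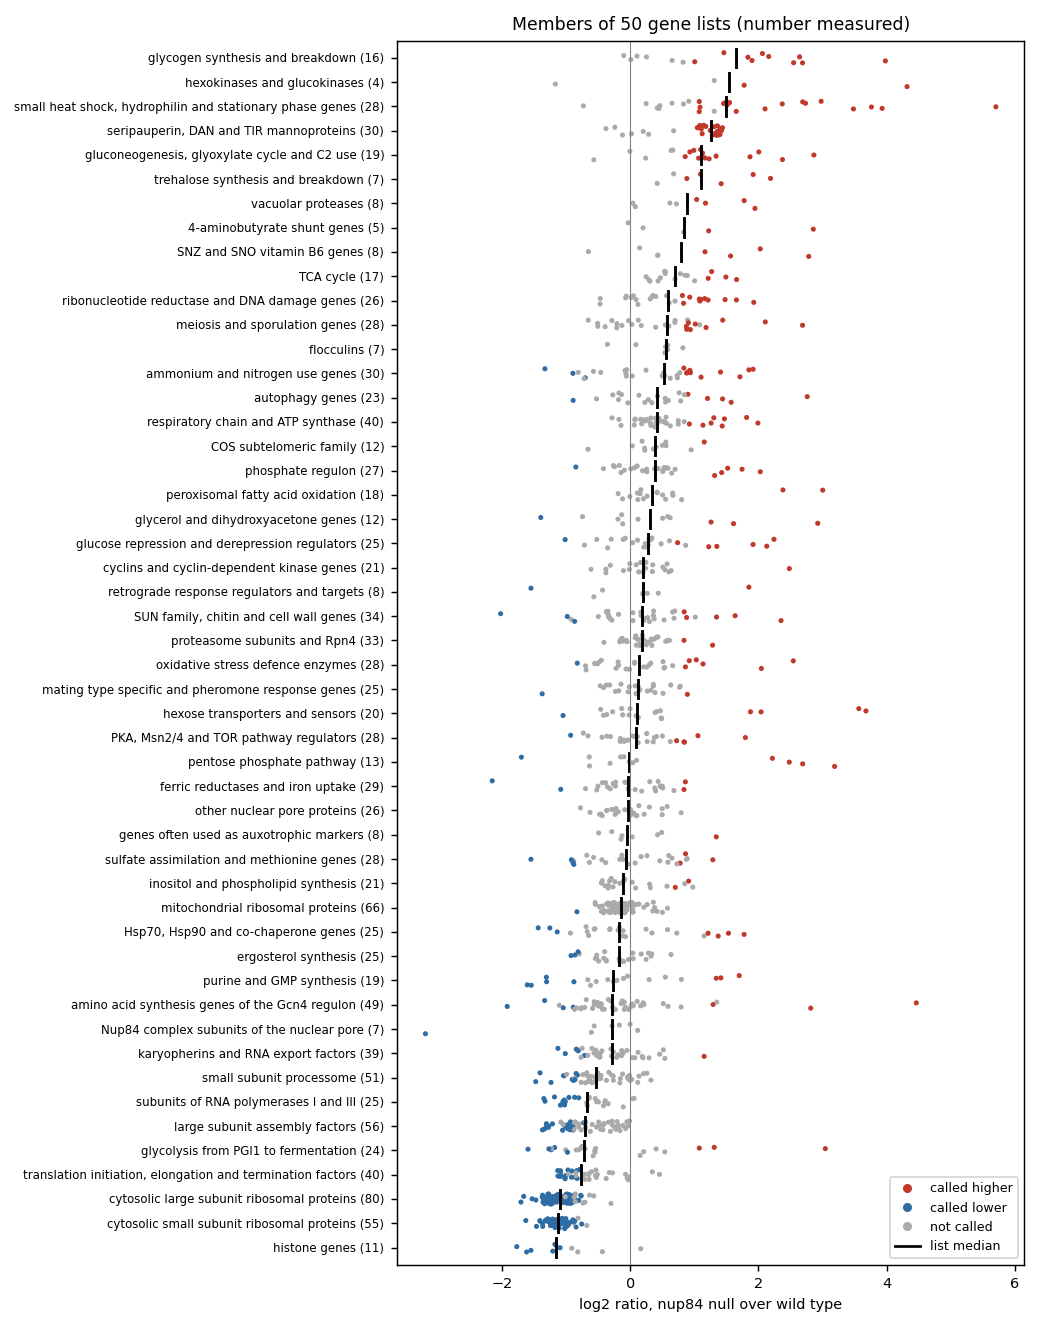
Mean log2 ratio of nup84 null over wild type (x axis) of each measured member of 50 gene lists (rows, with the number measured), ordered by the list median (black bar). Red points were called higher, blue points lower and grey points were not called; glycogen genes (median 1.65) lie at one end, and histone genes (median -1.16) and ribosomal protein genes at the other.

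Ribosomal protein genes fell almost without exception. Among 135 cytosolic ribosomal protein genes, 123 were called lower and none higher. Their median was -1.11 and their quartiles -1.24 and -0.98. By subunit, 71 of 80 large subunit genes and 52 of 55 small subunit genes were called. All 135 had a mean below 0. RPL20A read -1.14 and -1.51 in sample 1 and -1.79 and -2.38 in sample 2 (mean -1.70 ± 0.26, adjusted p = 0.00646). RPL31A fell by 1.66 on the log2 scale (SE 0.24) and RPS26B by 1.63 (SE 0.23). The medians of the large subunit genes on arrays 1 to 4 were -0.74, -0.97, -1.22 and -1.47, so the shift was present on each array and was larger on the arrays with the null in Cy3. Many ribosomal protein genes occur as near-identical pairs, and whether the probes tell the copies apart was not checked, so the counts may repeat shared signals.

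Genes for making ribosomes and for translation were also low, but fewer passed the test. Of 56 large subunit assembly factors, 18 fell and none rose (median -0.70), and all 56 had a mean below 0. MRT4, an assembly factor of the ribosomal stalk, read -0.79 and -1.23 in sample 1 and -1.54 and -1.92 in sample 2 (mean -1.37 ± 0.27, adjusted p = 0.0127). NMD3, the export adaptor of the large subunit, fell by 1.34 on the log2 scale (SE 0.26) and NOG2, an assembly GTPase, by 1.31 (SE 0.23). Of 51 genes of the small subunit processome, 9 fell (median -0.53), among them NOP56 (-1.47 ± 0.27) and NOP1, fibrillarin (-1.41 ± 0.22), both proteins of snoRNA particles. Of 25 subunits of RNA polymerases I and III, 11 fell (median -0.67), and RPC17, a polymerase III subunit, read -1.33 ± 0.21. Of 40 translation factors, 17 fell (median -0.76), and PAB1, the poly(A)-binding protein, read -1.09 ± 0.23 (adjusted p = 0.0157). These counts depended on single arrays. Without array 3, 9 large subunit assembly factors, 4 processome genes and 7 translation factors were called lower. Without array 4 the counts were 8 assembly factors and 11 translation factors.

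Histone genes gave the lowest median of the 50 lists, at -1.16. Of 11, 7 fell and none rose. HTB2, a copy of histone H2B, read -1.54 and -1.71 in sample 1 and -1.67 and -2.16 in sample 2 (mean -1.77 ± 0.27, adjusted p = 0.00645). HTA1 and HTA2, both copies of H2A, fell by 1.62 (SE 0.26) and 1.55 (SE 0.27), and HHF2, a copy of H4, fell by 1.21 (SE 0.23). The copies of each histone are near-identical, and probe specificity was not checked. Core histone transcripts are made mainly in S phase, and in a bulk culture fewer cells in that phase and less histone RNA per cell cannot be told apart. Of 21 cyclin and cyclin-dependent kinase genes, 1 rose (4.76%, against 8.61% of all genes) and none fell, and the median was 0.20. The 1 that rose was PCL5 (2.48 ± 0.27, adjusted p = 0.00153), a cyclin known to act on Gcn4.

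Ribonucleotide reductase genes rose in the nup84 null. RNR4, a small subunit of the enzyme that makes deoxynucleotides, read 2.08 and 1.71 in sample 1 and 2.36 and 1.56 in sample 2 (mean 1.93 ± 0.27, adjusted p = 0.00453). RNR2, the other small subunit, rose by 1.66 ± 0.32, and RNR3, the damage-induced large subunit, by 1.21 ± 0.26. HUG1, an inhibitor of the enzyme induced by damage, read 1.29, 0.93, 1.72 and 1.98 on arrays 1 to 4 (mean 1.48 ± 0.21, adjusted p = 0.00481). Of 26 genes of this list, which also holds repair and checkpoint genes, 11 rose (42.3%, against 8.61% of all genes), none fell and the median was 0.59. Without array 3 of the null, 7 were called. RNR4 also differed between strains: it was 2.90 ± 0.38 higher in the nup84 null than in the strain labelled gcr1 null, where it read -0.97 (difference tested in the same limma fit, adjusted p = 0.0187).

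Single cell wall genes were called in each direction. PIR3, a structural wall protein and 1 of the 15 highest calls, read 3.52, 4.01, 3.28 and 3.18 on arrays 1 to 4 (mean 3.50 ± 0.33, adjusted p = 0.000945). SUN4, a wall glucanase-like protein of septation, read -1.77, -1.58, -2.21 and -2.52 on arrays 1 to 4 (mean -2.02 ± 0.27, adjusted p = 0.00389), and NCA3, of the same family, rose by 1.64 ± 0.29. GSC2, the alternative subunit of glucan synthase, rose by 2.35 ± 0.23, and SED1, a structural wall protein, by 1.35 ± 0.25. Of 34 genes in the list, which leaves out PIR3, 5 rose (14.7%, against 8.61% of all genes) and 3 fell (8.82%, against 8.09%), and the median was 0.19. Leaving out array 4 of the null lowered the number called lower to 1.

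The seripauperin genes, a family of cell wall mannoproteins near chromosome ends, rose by similar amounts. Of 30 seripauperin, DAN and TIR genes, 23 rose and none fell, with a median of 1.27. All 23 were PAU genes, and they lay between 1.05 and 1.44. The 1 PAU gene not called was PAU17 (0.29, adjusted p = 0.437), and of the 6 DAN and TIR genes none was called. PAU1 read 1.18 and 1.06 in sample 1 and 1.94 and 1.58 in sample 2 (mean 1.44 ± 0.23, adjusted p = 0.00723). PAU genes are near-identical in sequence, and whether the probes tell them apart was not checked, so the 23 calls cannot be counted as 23 separate changes. The rise was not particular to this strain: the median of the 30 genes was 1.13 in the strain labelled gcr1 null and 0.98 in that labelled nup84gcr1 null. The limma fit called 0 of the 30 as different from either strain, and 1 and 0 had an unadjusted p under 0.05.

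Genes near chromosome ends were called higher in the nup84 null more often than other genes, with a shift that depended on the dye. Of the 10 outermost measured genes of each end of the 16 nuclear chromosomes, 320 in all, 77 rose (24.1%) and 10 fell, with a median of 0.35. Of the remaining 5297 nuclear genes, 403 rose (7.61%), and their median was -0.02. Without the PAU, DAN, TIR, COS and flocculin families, 58 of 285 end genes rose (20.4%), with a median of 0.25. The medians of these 285 on arrays 1 to 4 were 0.06, 0.07, 0.41 and 0.64. The shift was thus small with the null in Cy5 and lay mostly on the arrays with the null in Cy3. Whether dim spots contribute to this was not tested, since channel intensities were not used here. Of 12 genes with COS names, 1 was called higher (8.33%, against 8.61% of all genes), COS111 (1.15 ± 0.27). COS111 entered the list by its name and does not belong to the COS family of subtelomeric membrane proteins. The other 11 genes were not called. The flocculin list of 7 genes also holds FLO8, a transcription factor, and AGA1, an agglutinin subunit. It gave no call by limma, with 2 genes at an unadjusted p under 0.05. Without array 1 of the null, 3 genes of this list were called higher. Its members FLO1 and FLO9 lie on chromosome I, whose genes stood higher in sample 2.

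Chromosome I separated the 2 biological samples. The median over its 89 measured genes was 0.86 on array 2 and 0.84 on array 4, and -0.10 on array 1 and 0.14 on array 3. In sample 2 the median was 0.75, and 87 of the 89 genes were higher in sample 2 than in sample 1. The difference ran along the whole chromosome: in 4 successive runs of genes, 23 of 23, 22 of 22, 22 of 22 and 20 of 22 were higher in sample 2. On the other 15 nuclear chromosomes the array medians of the nup84 null lay between -0.14 and 0.23, and the median difference between samples between -0.09 and 0.08. Of the 134 genes that differed by more than 1 between the samples, 30 lay on chromosome I. The cause of the shift was not tested. On chromosome I, 11 genes were called, all higher. BDH2, a butanediol dehydrogenase paralog, read 1.92 and 1.97 in sample 1 and 3.06 and 2.92 in sample 2, and BDH1, butanediol dehydrogenase, read 1.40 and 1.20 in sample 1 and 2.53 and 2.08 in sample 2. On the arrays of the strain labelled nup84gcr1 null the median of chromosome I lay between -0.07 and 0.28, and there chromosome II stood apart, with medians from 0.59 to 0.71.

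**Figure D3:**
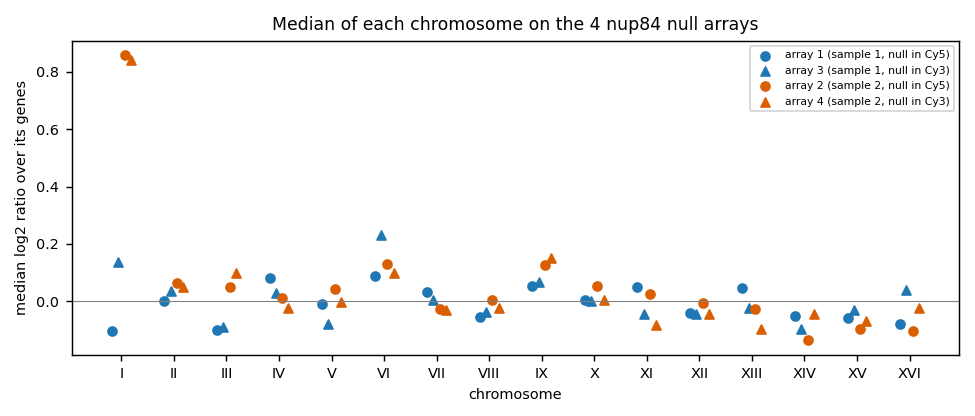
Median log2 ratio of nup84 null over wild type over the genes of each nuclear chromosome (y axis, by chromosome on the x axis) on each of the 4 arrays. On chromosome I, arrays 2 and 4, which are sample 2, lie at 0.86 and 0.84, above every other chromosome and above arrays 1 and 3.

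Further genes differed between the samples in a few pathways. GCN4, a transcription factor that turns on amino acid synthesis, read 1.05 and 1.97 in sample 1 and 7.52 and 7.31 in sample 2. Its mean of 4.46 ± 1.02 passed the test (adjusted p = 0.0215), and its size rests on sample 2. ARG1, an arginine synthesis enzyme and Gcn4 target, read -2.36 and -2.21 in sample 1 and 1.70 and 1.06 in sample 2 (mean -0.45 ± 0.70, adjusted p = 0.699). HIS4, a histidine synthesis enzyme, read 0.43 and -0.09 in sample 1 against 2.89 and 2.17 in sample 2 (mean 1.35 ± 0.46, adjusted p = 0.079, and 0.0458 without array 3). BTN2, a protein-sorting factor induced by heat, went the other way, at 1.25 and 0.86 in sample 1 and -1.53 and -1.77 in sample 2 (mean -0.30 ± 0.58, adjusted p = 0.764). These 4 genes, HXT6 and HXT7 were picked as the 6 with the largest difference between samples. That their arrays separate by sample follows from this choice.

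**Figure D4:**
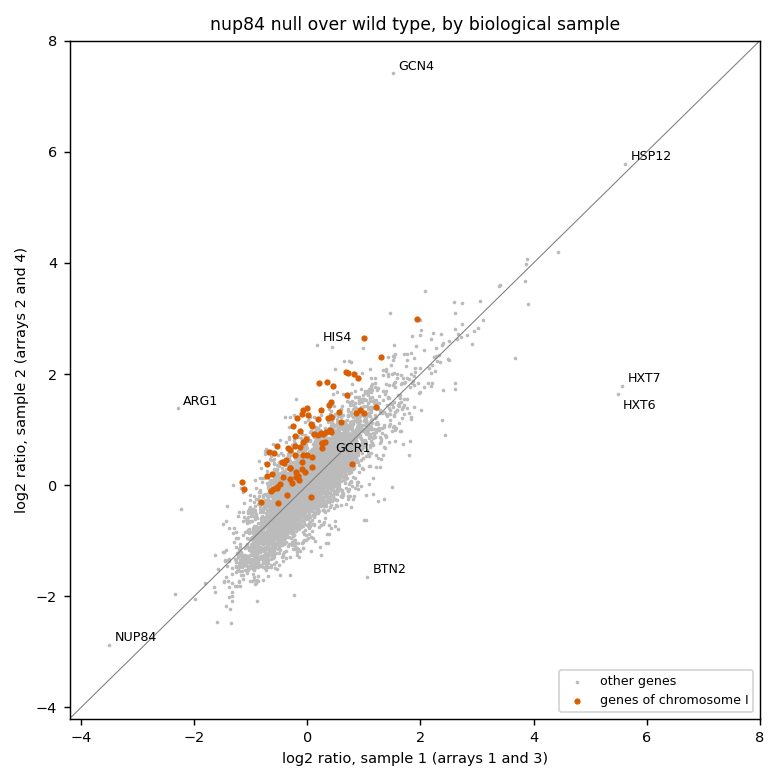
Log2 ratio of nup84 null over wild type in sample 1 (x axis) and sample 2 (y axis) for each gene, with the line of equal values and the genes of chromosome I in orange. GCN4, ARG1, HIS4, HXT6, HXT7 and BTN2 lie far from the line, and 87 of 89 chromosome I genes lie above it.

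The amino acid synthesis genes were called in both directions, at shares near those of all genes. Of 49 genes, GCN4 itself included, 3 rose (6.12%, against 8.61% of all genes) and 4 fell (8.16%, against 8.09%). The median was -0.28, with sample medians of -0.54 in sample 1 and -0.13 in sample 2. The list median, like GCN4, was thus higher in sample 2. SER3, of serine synthesis, rose by 2.81 ± 0.28 (adjusted p = 0.000996). CHA1, a serine and threonine deaminase, read -1.24 and -1.45 in sample 1 and -2.24 and -2.74 in sample 2 (mean -1.92 ± 0.36, adjusted p = 0.011). ILV3, of branched-chain amino acid synthesis, fell by 1.33 on the log2 scale (SE 0.30, adjusted p = 0.0203). The number called lower was 7 without array 1 and 9 without array 2. The SNZ genes of vitamin B6 synthesis rose: SNZ1 by 2.78 ± 0.36, SNZ2 by 2.03 ± 0.27 and SNZ3 by 1.56 ± 0.24. SNZ2 and SNZ3 are near-identical and may share signal. All 3 were higher in sample 2, and of the 8 genes in the list 4 rose, with a median of 0.80.

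Nitrogen use genes rose in part. PUT4, the proline permease, read 1.41 and 1.61 in sample 1 and 2.21 and 2.43 in sample 2 (mean 1.92 ± 0.27, adjusted p = 0.00481). GDH2, the glutamate dehydrogenase of glutamate breakdown, rose by 1.85 ± 0.23, and GAP1, the general amino acid permease, by 1.71 ± 0.26. Of 30 genes, 10 rose, 3 fell and the median was 0.53. Without array 3, 6 were called higher and 1 lower, and without array 4, 1 lower. Purine genes were called in both directions. ADE17, of the last steps of inosine monophosphate synthesis, rose by 1.70 ± 0.25, and ADE1, which lies on chromosome I, read 0.85 and 0.79 in sample 1 and 2.31 and 1.71 in sample 2 (mean 1.41 ± 0.31, adjusted p = 0.0179). FCY21, a purine-cytosine permease homologue, fell by 1.61 (SE 0.27). The other genes called lower, IMD3 (-1.30), GUA1 (-0.88) and APT1 (-1.31), named after their values were seen, act in GMP synthesis and adenine salvage. IMD2, an inosine monophosphate dehydrogenase of GMP synthesis, read -1.45, -1.35, -1.43 and -1.95 on arrays 1 to 4 (mean -1.54 ± 0.44, adjusted p = 0.0466, and 0.0715 without array 4 or 0.0558 without centring). Of 19 purine genes in all, 3 rose (15.8%, against 8.61% of all genes) and 5 fell (26.3%, against 8.09%). Their median was -0.26. AAH1, adenine deaminase, was among the 15 lowest genes at -1.81 ± 0.28 (adjusted p = 0.00645).

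Apart from NUP84, limma called no transcript of the nuclear pore, where it called 16.7% of all genes. The 6 other measured genes of the Nup84 complex lay between -0.61 (NUP145) and 0.12 (NUP133), and 1 had an unadjusted p under 0.05. Among 26 other nuclear pore proteins, 4 had an unadjusted p under 0.05, and the range was -0.78 to 0.79. The upper end was NUP60, named after its value was seen. It lies on chromosome I and read 0.24 in sample 1 and 1.35 in sample 2. Of 39 karyopherins and RNA export factors, 6 fell (15.4%, against 8.09% of all genes) and 1 rose (2.56%, against 8.61%). Their median was -0.29. The 1 that rose was GSP2, a copy of the transport GTPase Ran (1.15 ± 0.24, adjusted p = 0.0157). Among those that fell were YRA2, an RNA-binding export factor (-1.13 ± 0.28, adjusted p = 0.0288), and THP2, a THO complex subunit (-0.84 ± 0.21, adjusted p = 0.0283). These values are transcript levels over all RNA of the cell, and do not measure export.

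Vacuolar and autophagy genes rose in part. ATG39, a receptor for autophagy of the nuclear envelope, read 2.81, 2.46, 2.82 and 2.95 on arrays 1 to 4 (mean 2.76 ± 0.26, adjusted p = 0.000945). ATG19, a receptor of the pathway that carries hydrolases to the vacuole, rose by 1.57 ± 0.22, and its paralog ATG34 by 1.44 ± 0.21. ATG8, the autophagosome protein, rose by 1.21 ± 0.27. Of 23 autophagy genes, 5 rose (21.7%, against 8.61% of all genes) and 1 fell (4.35%, against 8.09%). Their median was 0.43. Of 8 vacuolar protease genes, 4 rose and the median was 0.88. They included APE1, a cargo of that pathway (1.78 ± 0.25), and PAI3, an inhibitor of the main vacuolar protease (1.95 ± 0.22).

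Meiosis genes and markers of mating type were read to check the state of the cells. Of 28 meiosis and sporulation genes, 9 rose and none fell, and the median was 0.58. RIM4, a translational repressor of meiosis, read 1.59, 2.00, 2.79 and 2.05 on arrays 1 to 4 (mean 2.11 ± 0.20, adjusted p = 0.000953), and DMC1, the meiotic recombinase, rose by 1.44 ± 0.21. The medians of the list on arrays 1 to 4 were 0.03, 0.03, 0.86 and 0.90, so it was shifted on the arrays with the null in Cy3. Without array 3 or array 4, 5 were called higher. Of 25 mating type and pheromone genes, 1 rose and 1 fell (4.0% each, against 8.61% and 8.09% of all genes). HO, the mating type endonuclease, read -1.15 and -1.61 in sample 1 and -1.22 and -1.51 in sample 2 (mean -1.37 ± 0.23, adjusted p = 0.00802). The pheromone gene MFA1 read 0.78 ± 0.58 and its alpha counterpart MF(ALPHA)1 0.14 ± 0.32, and the receptor genes STE2 and STE3 read 0.15 ± 0.56 and -0.18 ± 0.72. None of these 4 was called. The sample means differed in sign for both receptor genes: STE2 read -0.31 in sample 1 and 0.61 in sample 2, and STE3 0.41 and -0.77. For STE3 the arrays of sample 1 disagreed, at -0.30 (array 1) and 1.12 (array 3), so its sign there rests on array 3. STE6 (-0.24 and 1.26), BAR1 (-0.17 and 0.88) and ASG7 (-0.33 and 0.86) were also higher in sample 2, while SAG1 was lower there (1.21 and 0.33). The means near 0 therefore do not show that these genes were flat. Of 8 genes often used as auxotrophic markers, ADE2 was called (1.34 ± 0.26, adjusted p = 0.0119), and the others lay between -0.49 (LYS2) and 0.49 (TRP1).

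Phosphate, iron and glycerol genes gave single large changes. FRE4, a ferric reductase, read -2.81 and -2.69 on arrays 1 and 2 and -1.88 and -1.23 on arrays 3 and 4 (mean -2.15 ± 0.21, adjusted p = 0.000984). Of 29 iron uptake genes, 2 rose and 2 fell (6.9% each, against 8.61% and 8.09% of all genes), and the median was -0.03. Neither of the higher calls passed without array 3 of the null. PHM8, a nucleotidase of the phosphate response, rose by 2.03 ± 0.35, and PHO89, a phosphate transporter, by 1.43 ± 0.33. Of 27 phosphate genes, 5 rose (18.5%, against 8.61% of all genes) and 1 fell (3.7%, against 8.09%). Their median was 0.38. GCY1, a glycerol dehydrogenase, read 3.19, 3.17, 2.85 and 2.49 on arrays 1 to 4 (mean 2.92 ± 0.31, adjusted p = 0.00138). Of the glycerol phosphatase pair, GPP2 rose (1.61 ± 0.28) and GPP1 fell (-1.40 ± 0.25). GAD1, glutamate decarboxylase of the 4-aminobutyrate shunt, rose by 2.85 ± 0.30, and NCE103, carbonic anhydrase, by 3.58 ± 0.54. Of the lowest genes outside the lists, SFG1, a regulator of filamentous growth, read -1.73, -1.85, -1.88 and -1.67 on arrays 1 to 4, and YOL014W, a gene without a settled role, read -2.03 ± 0.29 in the mean.

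The nup84 null was then set against the other strains of the series in the same fit, since all ratios are to wild type. GCR1 was higher rather than lower in both strains labelled as lacking it (1.08 in the strain labelled gcr1 null and 0.78 in that labelled nup84gcr1 null), so these strains are named by their labels. NUP84 read -2.74 in the strain labelled nup84gcr1 null and -0.49 in that labelled gcr1 null. Against the strain labelled gcr1 null, 29 of 5636 genes differed (0.515%), 7 higher (0.124%) and 22 lower (0.39%) in the nup84 null, and 704 had an unadjusted p under 0.05. Against the strain labelled nup84gcr1 null, 42 differed (0.745%), 6 higher (0.106%) and 36 lower (0.639%), and 895 had an unadjusted p under 0.05. Leaving out sample 1 of the null left 0 calls in both differences, and leaving out sample 2 left 1 in each. Without array 4 the counts were 47 and 83, without array 3 the second was 64, and without array 1 it was 25. Scale normalization between arrays gave 46 calls in the first difference, of which 47.8% were higher in the nup84 null, against 24.1% without it, and 0 in the second, where 790 had an unadjusted p under 0.05.

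Of 24 glycolytic genes, 3 differed from the strain labelled gcr1 null and 5 from that labelled nup84gcr1 null, in both directions. GPM1, phosphoglycerate mutase, read -0.80 in the nup84 null, -5.14 in the strain labelled gcr1 null and -5.03 in that labelled nup84gcr1 null. ENO2 read -1.59, -5.53 and -5.17 in the same order, and all samples of both other strains lay below those of the nup84 null for both genes. CDC19, pyruvate kinase, was also higher in the nup84 null than in the strain labelled nup84gcr1 null (-0.55 against -3.40). ADH5, an alcohol dehydrogenase, went the other way, at 1.08 in the nup84 null against 3.40 (adjusted p of the difference 0.0359) and 4.22 (0.00876), and GPM2 read 3.04 against 5.32 in the strain labelled nup84gcr1 null (0.0422). ADH5 and GPM2 are named after their values were seen. ADH5 lies on chromosome II, whose genes stood higher on the arrays of the strain labelled nup84gcr1 null. In the retrograde list, whose members CIT2, DLD3 and PDH1 are known to rise when mitochondria fail, 3 of 8 genes differed from each strain, all lower in the nup84 null. Of the 19 genes of gluconeogenesis, the glyoxylate cycle and C2 use, CIT2 and JEN1, a lactate permease, differed from both strains, and ADH2 and ALD4 from that labelled nup84gcr1 null. All were lower in the nup84 null: JEN1, named after its values were seen, read 0.66 against 2.76 and 2.54, and ALD4 2.00 against 4.23. Small heat shock and stationary phase genes had a median of 1.49 in the nup84 null, 1.48 in the strain labelled gcr1 null and 2.13 in that labelled nup84gcr1 null, and SPG4 alone was called different, from the latter; 8 and 11 of the 28 had an unadjusted p under 0.05. The medians of the 80 large subunit ribosomal protein genes were -1.09, -2.29 and -2.09 in the same order. The limma fit called 0 of the 80 as different from either strain, while 75 and 65 of them had an unadjusted p under 0.05. A difference that misses the threshold does not show that the strains are alike.

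**Figure D5:**
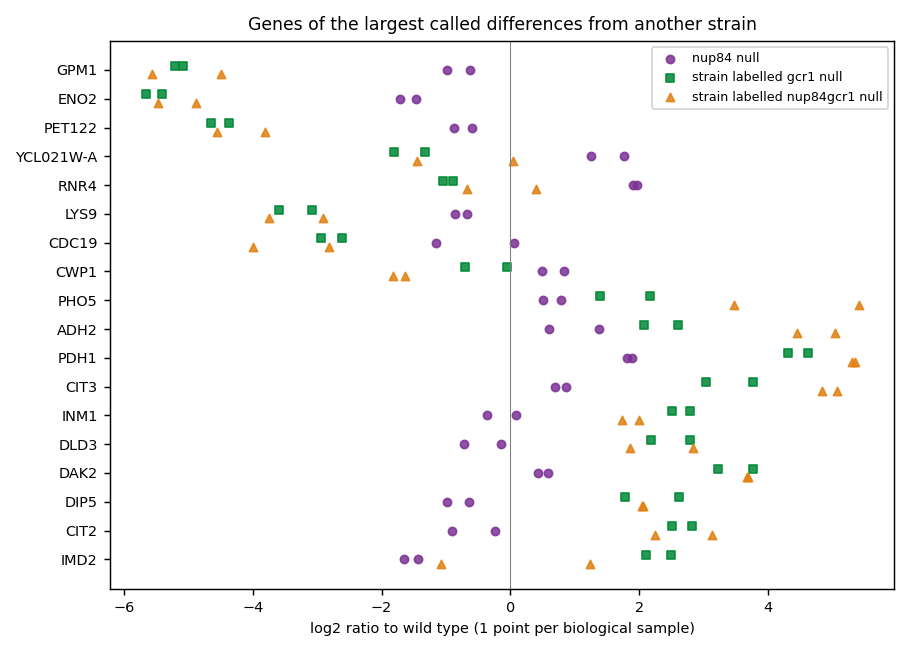
Log2 ratio to wild type (x axis) of the genes with the largest called differences between the nup84 null and another strain, 1 point per biological sample. For GPM1 and ENO2 the nup84 null (purple circles) has means of -0.80 and -1.59 and the strain labelled gcr1 null (green squares) of -5.14 and -5.53, and for CIT2, DAK2 and CIT3 the nup84 null lies below both other strains.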

How the data were processed

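RNA of a nup84 null and of wild type, both with 2% glucose, was labelled with an Agilent linear amplification kit and hybridised to 2-colour arrays, per the labels. The deposited values, 1 per probe and array, were taken to be log2 ratios, Cy5 over Cy3. Log base, scaling, centring and background correction by the authors before deposit are not given in the sources used here. Their range fits a log2 scale. Their direction follows the dyes named per array, and NUP84 lay below 0 after the signs of arrays 3 and 4 were changed. Channel intensities were not used here, so dim and saturated spots are not marked.

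Of 10807 probes, 9271 had 1 gene in the platform annotation, 0 had several and 1536 had none, and these 1536 were left out. Probes of a gene were averaged, giving 5636 genes, of which 2026 had 1 probe; in the nup84 null the 2 probes of a gene correlated at 0.983. Gene names and order along chromosomes come from the RefSeq table of assembly R64. The array medians of the nup84 null lay between -0.11 and 0.08, and each array was centred on its median. The table held 0 columns of other series.

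The design text of the series names biological replicates with dye swaps, but the labels do not say which arrays are swaps of each other. Arrays 1 and 3, and arrays 2 and 4, were averaged as 2 biological samples. The 3 strains entered 1 limma fit (limma 3.58.1, R 4.3.3; lmFit and eBayes, 3 residual and 5.66 prior degrees of freedom), which was tested on simulated data. Ratios to wild type were tested against 0 and between strains, without a replicate block, and calls needed an adjusted p under 0.05 (Benjamini-Hochberg, all 5636 genes). The number of arrays limits the precision. Sample numbers were not taken to pair the strains.

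Named were NUP84, GCR1, GCN4 and the 5 nearest genes on each side of NUP84, the 15 highest and 15 lowest calls with 1 sign on all arrays, up to 4 called members of each list with the largest ratios and all members of the mating, marker, hexokinase and Nup84 complex lists, the 6 highest and 6 lowest called differences per strain, and the 6 genes with the largest difference between samples. The comparison, the gene lists and the rules were chosen with earlier results of these data known. Genes outside the rule are marked as chosen after their values were seen, as are the members that explain a count (PAU17, SPG4, BDH1, BDH2). Promoter sequences were not used here. The alternatives were other pairings of arrays, the nup84 null alone, no centring, scale normalization, probe summaries, a 2-fold limit, a replicate block, a robust variance model and leaving out arrays or samples. Plots used Python 3.11.15 and matplotlib 3.10.9.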

Additional observations from a re-analysis of the deposited data

Results flagged for a closer look

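The genes below were singled out because the test of the difference between strains passed the threshold; values are differences in log2 ratio, nup84 null minus the other strain, with limma's adjusted p. Against the strain labelled gcr1 null 29 genes differed. In the nup84 null the lowest of them was IMD2, inosine monophosphate dehydrogenase, at -3.85 ± 0.63 (SE; adjusted p = 0.0411, and 0.0664 without centring). CIT2, peroxisomal citrate synthase, differed by -3.23 (adjusted p = 0.0128) and DLD3, a lactate dehydrogenase, by -2.91 (adjusted p = 0.0242). DIP5, a permease of acidic amino acids, gave -3.01, DAK2, dihydroxyacetone kinase, -2.98, and INM1, inositol monophosphatase, -2.78. The genes that were higher in the nup84 null were led by GPM1 at 4.34 and ENO2 at 3.94, both of glycolysis. PET122, a translational activator in mitochondria, differed by 3.76, YCL021W-A, a gene without a settled role, by 3.07, RNR4 by 2.90 and LYS9, of lysine synthesis, by 2.57.

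Against the strain labelled nup84gcr1 null 42 genes differed. Citrate and propionate genes were lower in the nup84 null: CIT3, mitochondrial citrate and methylcitrate synthase, by -4.17 ± 0.33 (adjusted p = 0.00258), PDH1, of propionate use, by -3.48, and CIT2 by -3.25. PHO5, acid phosphatase, differed by -3.79, and it lies on chromosome II, whose genes stood higher on the arrays of the other strain. ADH2, alcohol dehydrogenase, gave -3.75 and DAK2 gave -3.17. Higher in the nup84 null were GPM1 by 4.22, ENO2 by 3.58, PET122 by 3.44 and LYS9 by 2.56. CWP1, a cell wall mannoprotein, differed by 2.39 and CDC19, pyruvate kinase, by 2.85 ± 0.49 (adjusted p = 0.0462, 0.0628 without centring, 0.0564 with a replicate block and 0.113 without array 1). CDC19 lies on chromosome I, where sample 2 of the nup84 null was high: it read -0.65 and -1.67 in sample 1 and 0.70 and -0.60 in sample 2.

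The outlier criterion for single samples was not applied, because each strain has 2 biological samples.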

How the results depend on the processing

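The number of genes called between the nup84 null and wild type was within 1.5 times 941 with the larger p-value of both pairings, no centring, the median of probes, a robust variance model, a replicate block and each single array left out. Pairing array 1 with 4 and array 2 with 3 gave 4192 calls. Treating the 4 arrays as replicates gave 2020, and the count was 2158 with the nup84 null alone and 1924 with scale normalization. It was 573 without the genes of 1 probe and 588 with a 2-fold limit. Leaving out arrays or samples gave between 5 and 1135 calls, with 5 and 33 when a whole sample was absent. The difference from the strain labelled gcr1 null, 29 genes, became 3149 with the other pairing, 401 with arrays as replicates, 46 with scale normalization, 19 without genes of 1 probe, and between 0 and 47 with arrays or samples left out. The difference from the strain labelled nup84gcr1 null, 42 genes, became 3582, 522 and 0 under the first 3 of these, and between 0 and 83 with arrays or samples left out. With a replicate block the 3 counts were 1236, 43 and 71. The difference between samples 2 and 1 correlated across genes at -0.01 between the nup84 null and the strain labelled gcr1 null, at 0.10 between the nup84 null and that labelled nup84gcr1 null, and at 0.55 between the other two, so sample numbers gave no pairing for the nup84 null, while those strains deviated together. The chromosome I median in sample 2, 0.753, was 0.722 without centring, 0.866 with scale normalization, 0.786 without genes of 1 probe, and between 0.841 and 0.859 on single arrays. Among the named genes and the named strain differences, no sign of a called value reversed under any of these settings. The other calls were not read for this. Of the named genes, leaving out array 1, 2, 3 or 4 ended the call of 1, 4, 15 and 10, and leaving out sample 1 or 2 that of 148 and 167; no centring ended 4. Where not stated above, the cause of a change was not tested. Averaging arrays of both samples leaves out the spread between samples by construction, and fewer samples or genes were tested where some were left out. A fit of the nup84 null alone gives no difference between strains.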

Other observations

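Further lists of metabolism and its regulators were read in the nup84 null, where 8.61% of all genes were called higher and 8.09% lower. Of 28 sulfate assimilation and methionine genes, 3 rose (10.7%) and 4 fell (14.3%), with a median of -0.07. MET3, ATP sulfurylase, read 1.25, 1.36, 1.31 and 1.24 on arrays 1 to 4 (mean 1.29 ± 0.23, limma adjusted p = 0.00908). SAM1, an S-adenosylmethionine synthetase, read -1.60, -1.24, -1.56 and -1.78 (mean -1.55 ± 0.27, adjusted p = 0.00883). MMP1, a permease of S-methylmethionine, fell by 0.92 on the log2 scale (SE 0.20). Of 25 ergosterol synthesis genes, 3 were called lower and none higher (median -0.17), and IDI1, isopentenyl diphosphate isomerase, read -0.92 ± 0.21 (adjusted p = 0.0206). Without array 3 or array 4 of the nup84 null, 1 ergosterol gene was called. Of 21 inositol and phospholipid genes, 2 rose and the median was -0.11, and with any single array of the null left out at most 1 was called higher. INO1, inositol phosphate synthase, read 0.02 and 0.09 on arrays 1 and 2 and 1.51 and 2.03 on arrays 3 and 4 (mean 0.91 ± 0.27, adjusted p = 0.0489), so its values differ by dye rather than by sample, and without array 3 or array 4 its adjusted p was 0.29 and 0.349, and without centring it was 0.0525. Of 28 PKA, Msn2/4 and TOR pathway regulators, 5 rose (17.9%) and 1 fell, and the median was 0.09. RIM15, a kinase of entry into quiescence, rose by 0.85 ± 0.21 (adjusted p = 0.0297). Without array 3 or array 4, 3 of these regulators were called higher. In the retrograde list, PDH1 rose by 1.85 ± 0.20 and ATO3, an ammonium transporter, fell by 1.55 (SE 0.25), and the median of the 8 genes was 0.20.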
